A study of Rattus norvegicus with 167 samples.

Results

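The genes described here drive cells through division: 40 genes of the cell cycle and mitosis, followed in rat spinal cord from 1 to 90 days after a complete thoracic transection. The genes are a list drawn up by name, and each was read from the probe set with the highest mean among those annotated with a single gene symbol. Of the 40 genes, 38 were measured, out of 14218 genes with a named probe set, and all 38 were among the 12041 genes that passed the filter on low values. Rrm2, a subunit of ribonucleotide reductase, lay only on probe sets shared by several symbols, and Tpx2, a spindle assembly factor, was not in the annotation table used here, so neither has a value. The 38 genes comprise 2 G1 cyclins, 9 genes of S phase and 27 genes of mitosis.

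The arrays came from adult female Wistar rats whose cord was cut completely at T7/8 with removal of a 5 mm piece. Into the gap went a chitosan tube carrying NT-3, the growth factor neurotrophin-3 (NT3), a chitosan tube without it (ET), or nothing (lesion control, LC), so every injured group shares the transection itself. Segments of 5 mm from the lesion site and from the cord on its rostral and caudal sides were taken on days 1, 3, 10, 20, 30, 60 and 90, with the lesion site sampled from day 3 on. The 167 arrays formed 56 groups: 21 LC, 21 NT3 and 20 ET arrays rostrally, 21 of each caudally, 18 LC, 18 NT3 and 3 ET arrays at the lesion site (ET on day 3 alone), and 3 uninjured cords. Every group held 3 arrays except ET on day 10 rostrally, which held 2. Whether replicates were different animals is not given in the labels, and the p-values therefore reflect the spread among these arrays, which may be technical. Values are the authors' deposited log2 expression values. A difference of 1 is a doubling, and a gene is called higher or lower where limma's moderated test, adjusted by Benjamini-Hochberg over all 12041 genes, gave a p under 0.05. The number of arrays limits the precision. Array medians ran from 7.1 to 7.25. In earlier results 3 arrays stood apart (lesion site LC day 20 replicate 5, lesion site NT3 day 3 replicate 1 and uninjured replicate 2), and results were recomputed without them. Neuron markers, the defining check of spinal cord tissue, had a mean level of 11.04 to 11.13 in the uninjured cords and 6.61 to 6.97 at the LC lesion site on day 20, far below the uninjured level. In whole tissue a change in the number of dividing cells and a change in RNA per cell cannot be told apart.

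A cell enters division by making D cyclins and then cyclin E, which activate kinases that release E2F transcription factors. E2F targets build the replication machinery of S phase: the Mcm proteins form the helicase that opens DNA, Pcna is the clamp that holds DNA polymerase, and Rrm1 and Tyms supply nucleotides. Genes of mitosis are switched on later by B-Myb and FoxM1. They include Cdk1 with its cyclins, the spindle checkpoint kinases, the kinesins and the cytokinesis genes. After spinal cord injury the dividing cells are known to include microglia, infiltrating leukocytes, glial precursors, astrocytes, ependymal cells, endothelium and fibroblasts, so these genes report division without naming the cell that divides.

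The 2 gene classes are known to differ in the short motifs of their promoters, and RefSeq promoters of the GRCr8 assembly (250 bases before and 50 bases from the transcript start) were searched on both strands for 3 of them. The E2F motif was searched as the canonical form TTGGCGC, as the form TTCCCGC, as the variant TTCGCGC and as the variant TTGCCGC. The CHR element of mitosis genes was searched as the common form TTTGAA and as the variant TTCGAA. The CCAAT box was searched by its own letters. Matches of different motifs could overlap. Promoters of 32 of the 40 genes were in the table. The E2F motif was in 7 of 8 S phase promoters (87.5%), 5 of 23 mitosis promoters (21.7%) and 9.52% of all 33469 promoters. The CHR element was in 15 of 23 mitosis promoters (65.2%), 3 of 8 S phase promoters (37.5%) and 19.7% of all. The CCAAT box was in 18 of 23 (78.3%), 6 of 8 (75%) and 37.5%. The promoter of Ccne1 held none of the 3. Median GC content was 57.2% for S phase, 58.7% for mitosis and 51.7% for all promoters, so the classes also differ from the rest in base composition. A match describes the letters and shows no binding. Promoters are printed below for the S phase gene and the mitosis gene that rose most on day 3 rostrally, Mcm6 (chr13:42404303-42404602, minus strand) and Mki67 (chr1:199952544-199952843, minus strand). Mcm5 (chr19:13488563-13488862, plus strand), Cdk1 (chr20:19265043-19265342, plus strand) and Top2a (chr10:84473044-84473343, minus strand) were added after the motif counts were seen. They show 1 more S phase promoter with E2F motifs and 2 more mitosis promoters with CHR and CCAAT. Capitals mark every motif match, on either strand, and each promoter reads 5′ to 3′ toward the gene.
Mcm6: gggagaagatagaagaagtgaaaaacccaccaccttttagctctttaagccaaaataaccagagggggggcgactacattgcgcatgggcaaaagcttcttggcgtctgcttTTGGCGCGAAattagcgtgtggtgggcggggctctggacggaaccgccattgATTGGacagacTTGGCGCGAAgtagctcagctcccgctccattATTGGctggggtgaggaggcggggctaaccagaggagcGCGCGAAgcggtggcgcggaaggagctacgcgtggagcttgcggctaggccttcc
Mcm5: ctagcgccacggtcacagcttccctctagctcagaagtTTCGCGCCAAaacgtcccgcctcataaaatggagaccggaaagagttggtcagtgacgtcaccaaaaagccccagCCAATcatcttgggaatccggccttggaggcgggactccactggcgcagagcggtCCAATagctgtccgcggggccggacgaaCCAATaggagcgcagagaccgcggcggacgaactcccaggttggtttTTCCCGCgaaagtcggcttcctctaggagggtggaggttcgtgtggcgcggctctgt
Mki67: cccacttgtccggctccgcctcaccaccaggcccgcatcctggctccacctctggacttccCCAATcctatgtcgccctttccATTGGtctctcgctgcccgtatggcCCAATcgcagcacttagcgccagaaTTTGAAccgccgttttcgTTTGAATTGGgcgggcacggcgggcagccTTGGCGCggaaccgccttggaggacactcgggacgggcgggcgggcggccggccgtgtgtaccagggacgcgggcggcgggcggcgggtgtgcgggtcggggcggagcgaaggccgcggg
Cdk1: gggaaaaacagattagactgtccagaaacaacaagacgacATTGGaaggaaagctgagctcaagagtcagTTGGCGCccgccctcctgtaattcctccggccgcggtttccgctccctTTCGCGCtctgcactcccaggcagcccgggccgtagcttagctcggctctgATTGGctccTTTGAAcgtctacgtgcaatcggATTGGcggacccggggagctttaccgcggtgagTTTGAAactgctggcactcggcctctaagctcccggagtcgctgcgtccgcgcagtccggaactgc
Top2a: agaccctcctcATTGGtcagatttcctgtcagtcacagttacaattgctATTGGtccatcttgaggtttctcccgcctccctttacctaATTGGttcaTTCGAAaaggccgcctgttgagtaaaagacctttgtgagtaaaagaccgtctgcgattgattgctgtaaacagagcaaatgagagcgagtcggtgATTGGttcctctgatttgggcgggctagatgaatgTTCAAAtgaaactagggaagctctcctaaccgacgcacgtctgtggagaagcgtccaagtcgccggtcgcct
The Mcm6 and Mcm5 promoters held E2F and CCAAT matches and no CHR element. Top2a was picked as the mitosis gene that rose most among those with CHR and CCAAT matches and no E2F motif. Its motifs were therefore fixed by the choice. The promoters of Mki67 and Cdk1 held all 3.

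Transection was followed by a wave of cell cycle RNA that peaked on day 3 for all 38 genes in each segment of the LC arm. At the lesion site day 3 was the first day sampled. All 38 genes were also highest on day 3 with NT3 in each segment and with ET caudally. Rostrally with ET, Ccnd1 and Ccne1 were highest on day 1 and the other genes on day 3. On day 3 all 38 genes rose against uninjured cord in each segment, where 35.3% of all tested genes rose rostrally (64.3% called in either direction), 40.8% at the lesion site (74.3%) and 33.8% caudally (63.2%). The median rise of the mitosis genes was 3.3 rostrally, 3.86 at the lesion site and 3.07 caudally, and that of the S phase genes was 1.74, 2.41 and 1.53. All comparisons with uninjured cord share the same 3 uninjured arrays. In these, several mitosis genes lay near the floor, such as Bub1b at percentile 6.3 of all probe sets, Melk at 13.6 and Ccna2 at 15.8. Others lay higher, such as Plk1 at 51.4 and, in S phase, Pcna at 98.2. The low genes passed the filter through injured arrays, Bub1b with 33 of 167 arrays over the 40th percentile and Melk with 47. Their being tested thus depends on the rise itself. The count on day 3 was 38 in every segment under all alternatives and with any single array left out.

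**Figure D1:**
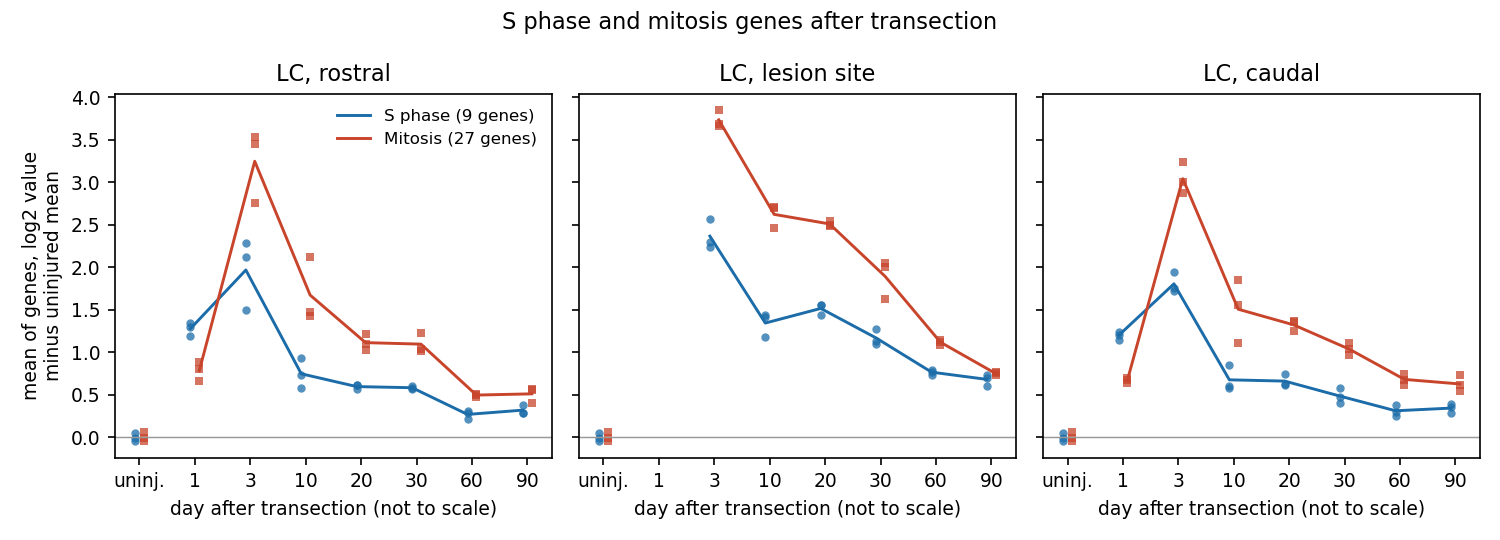
Mean of the 9 S phase genes (circles) and of the 27 mitosis genes (squares) in LC by segment, as log2 value minus the uninjured mean. Each point is 1 array, lines join group means, and days are evenly spaced, not to scale. In the group means S phase lies above mitosis on day 1 and below it from day 3, narrowly so at the lesion site on day 90, and both are highest on day 3. S phase at the lesion site is 1.34 on day 10 and 1.51 on day 20.

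Among the G1 cyclins, Ccnd1 (cyclin D1, which starts the cycle) read 10.03, 10.20 and 10.10 in the uninjured cords, 11.13, 11.16 and 11.26 rostrally on LC day 1, and 11.88, 11.51 and 11.77 on day 3. All injured arrays of both days lay above the uninjured ones. Its difference was 1.07 (SE 0.11, 2.10-fold, adjusted p = 1e-11) on day 1 and 1.61 (SE 0.11, 3.06-fold) on day 3. Ccne1 (cyclin E1, which carries the cell into S phase) read 7.31, 7.34 and 7.51 in uninjured cords and 8.02, 7.53 and 8.24 rostrally on day 3, with every day 3 array above the uninjured ones. It rose by 0.54 on day 3 (SE 0.12, adjusted p = 1.2e-04), while on day 1 the difference of 0.11 did not pass the test (adjusted p = 0.45).

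The S phase genes were already up on day 1. Mcm6, a helicase subunit, read 5.52, 5.94 and 5.70 in uninjured cords, 8.04, 8.38 and 8.19 rostrally on day 1 and 9.39, 8.34 and 9.07 on day 3. The day 1 arrays stood clear of the uninjured ones and overlapped with those of day 3, because replicate 2 of rostral LC day 3 was the lowest of its group. Mcm6 rose by 2.48 on day 1 (SE 0.19, 5.59-fold, adjusted p = 1.1e-15) and by 3.21 on day 3 (SE 0.19, 9.27-fold). Mcm2, another subunit, read 6.78, 7.01 and 6.71 uninjured and 8.42, 8.62 and 8.78 on day 1, a rise of 1.77 (SE 0.14, 3.42-fold, adjusted p = 3.6e-15), and it rose by 2.33 on day 3. Mcm5 read 6.63, 6.69 and 6.52 uninjured and 7.92, 7.96 and 8.01 on day 1, a rise of 1.35 (SE 0.15, 2.55-fold), and it rose by 2.40 on day 3. The smallest S phase rise on day 3 was that of the replication clamp Pcna, which read 12.13, 12.04 and 12.14 uninjured, 12.91, 12.99 and 12.87 on day 1 and 13.12, 12.94 and 13.29 on day 3. Its differences were 0.82 on day 1 (SE 0.07, 1.76-fold, adjusted p = 6.5e-14) and 1.01 on day 3 (SE 0.07, 2.02-fold). Rrm1, the large subunit of ribonucleotide reductase, followed later than the helicase genes. It read 8.04, 8.08 and 7.98 uninjured, 8.61, 8.66 and 8.55 on day 1 and 9.99, 9.29 and 10.06 on day 3, differences of 0.57 and 1.74. Tyms, thymidylate synthase, differed by 0.90 and 1.68.

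The mitosis genes rose far, and most of their log2 rise came after day 1. Mki67, the proliferation marker Ki-67, read 5.64, 5.83 and 5.45 in uninjured cords, 6.90, 7.35 and 7.31 rostrally on day 1 and 11.05, 9.90 and 10.82 on day 3. The 3 groups did not overlap. The difference was 1.55 on day 1 (SE 0.32, 2.93-fold, adjusted p = 4.9e-05) and 4.95 on day 3 (SE 0.32, 30.9-fold, adjusted p = 3.8e-18), the largest of all 38 genes on that day. Cdk1, the kinase that starts mitosis, read 5.84, 5.95 and 5.78 uninjured, 7.48, 7.90 and 7.93 on day 1 and 10.65, 10.24 and 10.92 on day 3. Its differences were 1.91 (SE 0.21, 3.77-fold, adjusted p = 4.7e-11) and 4.75 (SE 0.21, 26.9-fold, adjusted p = 1.6e-24). Top2a, the topoisomerase that untangles chromosomes, read 5.56, 5.56 and 5.60, then 6.65, 6.88 and 6.53, then 10.06, 9.08 and 10.07, differences of 1.12 and 4.17 (17.9-fold on day 3). Ccna2 (cyclin A2) and Ccnb2 (cyclin B2) rose by 4.38 and 4.27 on day 3. The smallest mitosis rise on day 3 was that of the kinase Plk1, at 1.57.

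A group of late mitosis genes showed no call on day 1. Ccnb1 (cyclin B1, the partner of Cdk1) read 7.09, 7.0 and 7.13 uninjured and 7.25, 7.25 and 7.17 rostrally on day 1, then 9.61, 9.18 and 9.77 on day 3. The day 1 difference was 0.15 (SE 0.15, adjusted p = 0.4) and the day 3 rise 2.45 (SE 0.15, 5.45-fold). Ccnb1 has 2 probe sets, and with their mean the day 1 difference was 0.46 and passed the test (adjusted p = 0.0144). The centromere protein gene Cenpf read 6.31, 6.20 and 6.0 uninjured, 6.01, 6.14 and 6.03 on day 1 and 8.58, 8.17 and 8.84 on day 3, so its day 1 arrays lay within or just under the uninjured range (difference -0.11, adjusted p = 0.56). Plk1 differed by 0.07 on day 1 (adjusted p = 0.64). The other mitosis genes without a call rostrally on day 1 were Aurkb, Kif11, Kif20a, Kif2c and Racgap1, with differences of 0.13 to 0.44.

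On day 1, 29 of the 38 genes rose rostrally, where 31.5% of all genes did and 62.6% were called in either direction: all 9 S phase genes (median 1.2), 19 of 27 mitosis genes (median 0.75) and Ccnd1. Caudally 27 rose, where 29.2% of all genes did and 56.8% were called in either direction: all 9 S phase genes (median 1.03), 17 mitosis genes (median 0.62) and Ccnd1. From day 1 to day 3, 38 genes rose further rostrally (16.3% of all genes) and 35 caudally (15.6%). The median step was 0.73 for S phase and 2.55 for mitosis rostrally. Caudally, Ccnd1, Ccne1 and Pcna were without a call for this step, with differences of 0.35, 0.21 and 0.14. Set against the day 3 level, the share of the rise present on day 1 had a median of 66.3% for S phase rostrally, from 32.7% for Rrm1 to 80.9% for Pcna, and 22.7% for mitosis, from -4.72% for Cenpf to 43.2% for Tacc3, a spindle protein. Caudally the medians were 68.3% and 18.9%. Of the 9 S phase genes, 8 had over 50% of their rise on day 1 in each segment, and of the 27 mitosis genes none had. Ccnd1 behaved like the S phase genes in this measure, at 66.5% rostrally and 76.4% caudally, and Ccne1 stood at 20.0% and 42.4%. These shares are ratios of log2 differences and not shares of the amount of RNA. They describe the genes and were not tested, since day 1 and day 3 share the uninjured arrays.

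**Figure D2:**
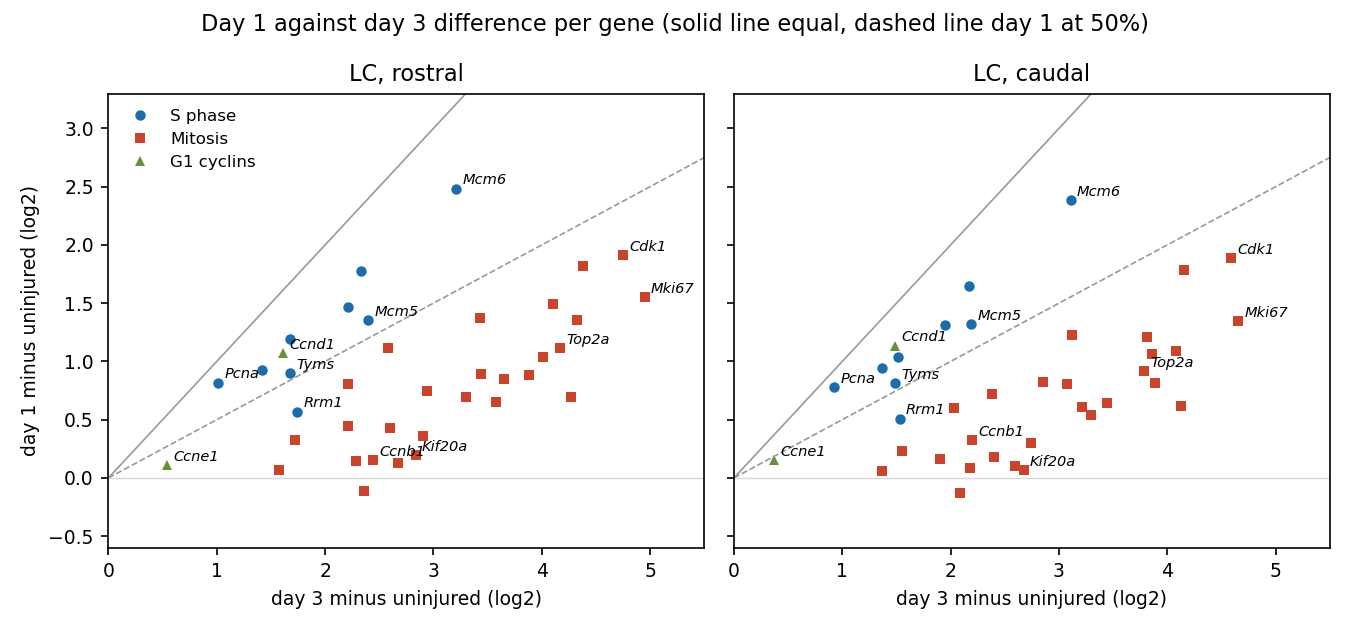
Difference from uninjured cord on LC day 1 (vertical, log2) against LC day 3 (horizontal, log2) for each of the 38 genes, rostrally and caudally. On the solid line the days are equal, and on the dashed line day 1 reaches 50% of day 3. All S phase genes except Rrm1 lie above the dashed line and all mitosis genes below it.

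As a mean over genes, the S phase class stood 1.28 ± 0.08 (SD, n = 3) above uninjured cord on day 1 rostrally and the mitosis class 0.78 ± 0.11. On day 3 the values were 1.97 ± 0.41 and 3.24 ± 0.42. S phase minus mitosis was therefore 0.49 ± 0.03 on day 1 and -1.28 ± 0.13 on day 3. Caudally it was 0.53 ± 0.02 and -1.24 ± 0.07. The larger spread on day 3 rostrally came with replicate 2 of LC, at 1.5 for S phase and 2.76 for mitosis. On day 1 in the arms with a tube it was 0.11 ± 0.30 with NT3 and 0.16 ± 0.09 with ET rostrally, 0.24 ± 0.22 and 0.18 ± 0.11 caudally. Replicate 1 of NT3, at 0.45 in each segment, lay next to the LC arrays (0.46 to 0.55), and the difference between arms was not tested. RT1-CE10 was above 9 in 3 of 3 LC arrays and in 0 of 3 NT3 arrays rostrally on that day. In the ET arrays of that day it read 10.70 to 11.00 rostrally and 10.20 to 11.15 caudally, also above 9. Its part in these values was not tested.

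Markers of other cell types changed as this wave rose. Rostrally on day 3, 13 of 14 microglia and macrophage markers and 9 of 9 fibroblast and pericyte markers rose and 10 of 10 neuron markers fell. The mean level of the microglia and macrophage list was 8.65 to 8.81 in uninjured cords, 10.00 to 10.35 on day 1, 10.92 to 11.24 on day 3 and 10.70 to 10.88 on day 90. That of the fibroblast list was 8.49 to 8.58, 9.92 to 10.07, 10.17 to 10.52 and 9.68 to 9.76. On day 10 rostrally the microglia and macrophage list read 10.87 to 11.10 and the fibroblast list 9.65 to 11.61. At the lesion site the microglia and macrophage list read 10.64 to 10.87 on day 3, 11.15 to 11.30 on day 10 and 10.02 to 10.42 on day 90. The difference between the 3′ and 5′ probe sets of beta-actin, a sign of RNA integrity, averaged 1.72 in uninjured cords and 0.906 to 1.25 in the rostral LC groups. With that difference as a covariate the day 3 count was still 38 in each segment. The histocompatibility gene RT1-CE10 also moved between LC days: it read 6.49 to 6.68 in uninjured cords and, rostrally, 10.39 to 11.36 on day 1 and 7.27 to 9.19 on day 3. The part of the cell type markers and of RT1-CE10 in the result was not tested.

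The wave then fell in every segment, at different speeds. From day 3 to day 10, 38 genes fell rostrally (28.1% of all genes), 38 at the lesion site (25.6%) and 37 caudally (25.6%), with Aurkb as the exception caudally at -0.93. The median of all genes itself moved by -0.12 in this step at the lesion site as deposited, and by 0.02 after scaling to the 75th percentile. The falls there ran from -0.41 for Pcna to -1.59 for Ube2c, the ubiquitin-conjugating enzyme of mitotic exit. From day 10 to day 30, 18 genes fell rostrally (4.50%), 23 at the lesion site (6.34%) and 12 caudally (4.19%). At the lesion site these were 23 mitosis genes, and no S phase gene or G1 cyclin passed the test. RT1-CE10 differed between these days in every segment, at 7.13 to 8.50 on day 10 and 11.19 to 12.37 on day 30, and its part was not tested. The rostral count was 2 without LC day 10 replicate 2, and the caudal count was 4 without LC day 10 replicate 3, 5 without LC day 30 replicate 2 and 23 without LC day 10 replicate 2. From day 30 to day 90, 34 genes fell at the lesion site (10.2%), 12 rostrally (1.91%) and 4 caudally (1.35%). The lesion site falls were largest for Mki67 (-1.81), Ect2 (-1.58), a cytokinesis gene, Cdk1 (-1.53) and Top2a (-1.49). In the same step there 11 of 14 microglia and macrophage markers, 10 of 11 T cell markers and 6 of 9 fibroblast and pericyte markers fell, and their part in the result was not tested. The rostral count was 1 without LC day 30 replicate 2, 3 without LC day 90 replicate 1 and 5 without LC day 30 replicate 3. The caudal count was 0 without LC day 30 replicate 1 or LC day 90 replicate 2, and 1 without LC day 90 replicate 1.

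Against uninjured cord, most genes stayed raised for a month. Rostrally, 37 genes were higher and 1 lower on day 10, where 24.6% of all genes were higher and 57.1% called. The counts were 33 and 1 on day 20 (27.3% of all genes higher, 54.7% called), 34 and 1 on day 30 (27.2% higher, 25.0% lower, 52.2% called), 19 and 1 on day 60 (22.1% higher, 45.9% called) and 18 and 1 on day 90 (23.7% higher, 51.3% called). Caudally they were 36 and 1 on day 10 (24.8% higher, 56.4% called), 36 and 1 on day 20 (28.6%, 56.5%), 33 and 1 on day 30 (24.8%, 53.0%), 24 and 1 on day 60 (21.6%, 50.9%) and 23 and 1 on day 90 (24.0%, 51.8%). In the lesion segment 37 were higher on day 10 (37.9%, 75.7%), 37 on day 20 (41.5%), 37 with 1 lower on day 30 (39.4%, 74.4%), 34 with 1 lower on day 60 (37.9%, 71.9%) and 31 with 2 lower on day 90 (39.3%, 72.2%).

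Single genes show how the decline was divided. Mki67 rostrally stood 2.56, 1.81, 1.71, 0.80 and 0.90 above uninjured cord on days 10, 20, 30, 60 and 90, and at the lesion site 4.33, 4.13, 3.45, 2.40 and 1.64. Its last 2 rostral calls were lost without single arrays: on day 60 without LC replicate 2 or 3 or uninjured replicate 1 or 3, and on day 90 without LC replicate 2 or uninjured replicate 3. Cdk1 stood at 3.04, 2.31, 2.22, 1.10 and 1.06 rostrally and 3.89, 3.85, 2.90, 1.85 and 1.38 at the lesion site, all called. Top2a stood at 2.46, 1.63, 1.58, 0.87 and 0.77 rostrally and 3.49, 3.33, 2.66, 1.80 and 1.18 at the lesion site, and its rostral day 90 call was lost with the mean of its probe sets (0.33). Among S phase genes, Mcm2 levelled off rostrally at 1.03, 1.03, 0.96, 0.73 and 0.73, all called, and at the lesion site it stood at 1.99, 2.16, 1.67, 1.41 and 1.34. Mcm5 went from 0.89 on day 10 rostrally to 0.06 and 0.11 on days 60 and 90, both without a call. Pcna stood at 0.46, 0.53, 0.45, 0.26 and 0.31 rostrally. Ccnd1 kept a called rise at the lesion site of 0.63, 0.65, 0.68, 0.73 and 0.81 on these days, with arrays of 10.90, 10.93 and 10.92 on day 90.

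Ccne1 went the other way. After its day 3 peak in LC it was below uninjured cord from day 10 on in the neighbouring cord and from day 30 on at the lesion site. Its rostral differences were -0.44, -0.43, -0.49, -0.72 and -0.76 on days 10, 20, 30, 60 and 90, all called. At the lesion site it read 5.72, 5.97 and 5.63 on day 90 against 7.31, 7.34 and 7.51 in uninjured cords, a fall of 1.61 on the log2 scale (SE 0.14, adjusted p = 9.8e-12). The arrays did not overlap. Aurka, a spindle pole kinase, read 6.89, 7.22 and 6.76 at the lesion site on day 90 against 7.19, 7.18 and 7.44 (difference -0.31, SE 0.12, adjusted p = 0.017), with overlapping arrays. That call was lost without LC day 90 replicate 1 (-0.28) or replicate 3 (-0.21) or without uninjured replicate 3 (-0.23). Ccnb1 was back at -0.14 there (adjusted p = 0.33). With the mean of its probe sets that value was 0.44 (adjusted p = 0.00267).

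The lesion site and the cord beside it differed. In LC the lesion site was compared with the mean of rostral and caudal cord. On day 3 it was higher for 30 genes and lower for 2 (32.0% of all genes higher, 62.2% called). The counts were 36 and 0 on day 10 (36.8%, 66.8%), 35 and 0 on day 20 (39.6%, 69.3%) and 32 and 1 on day 30 (37.3%, 70.2%). They were 30 and 4 on day 60 (36.9%, 67.0%) and 16 and 5 on day 90 (38.3%, 68.4%). On day 90 the share of members called higher was near that of all genes. The share called in either direction was below it. The widest gaps were on day 20. Mki67 then read 10.02, 9.73 and 9.55 at the lesion site against 7.55, 7.36 and 7.43 rostrally and 7.80, 7.86 and 8.02 caudally, a difference of 2.10 (SE 0.25, adjusted p = 6.1e-13). The kinesin Kif23 differed by 1.99, the checkpoint kinase Bub1 by 1.82 and Ccna2 by 1.80. Of the genes always described here, Top2a differed by 1.56, Cdk1 by 1.43, Ccnb1 by 1.23, Mcm2 by 1.10, Mcm5 by 1.02 and Ccne1 by 0.61. Ccnd1 (0.07) and Pcna (-0.10) had no call. Cell type markers differed between the same segments: on day 20, 10 of 10 neuron markers (median -4.20) and 6 of 7 astrocyte markers were lower at the lesion site, and 9 of 9 fibroblast and pericyte markers (median 1.30) and 10 of 11 T cell markers were higher. Of the microglia and macrophage markers 6 of 14 were higher and 4 lower. Their part in the result was not tested.

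On day 90, 5 of the 38 genes were lower at the lesion site, where 30.1% of all genes were lower, so as a share the members were called lower less than all genes were. Ttk, a spindle checkpoint kinase, read 6.63, 7.28 and 6.62 rostrally and 5.67, 5.35 and 5.53 at the lesion site, against 5.10, 5.41 and 5.09 in uninjured cords. The rostral arrays lay above all lesion site arrays. The lesion site was lower than the neighbouring cord by -1.36 for Ttk (SE 0.18, adjusted p = 5.5e-11), -0.85 for Ccne1, -0.73 for Aurka, -0.37 for Ccnb1 and -0.16 for Pcna. The Ccnb1 and Pcna calls were lost without lesion site LC day 90 replicate 3 (-0.31 and -0.14), and the Ccnb1 difference was -0.03 with the mean of its probe sets (adjusted p = 0.842). Ttk was the mitosis gene with the largest late rise beside the lesion, at 1.64 rostrally and 1.72 caudally on day 90, where its day 3 rise had been 3.44 and 3.07. Against the neighbouring cord, Aurka went from 0.37 on day 3 to -0.35 on day 30, a call lost without lesion site LC day 30 replicate 3 (-0.24), and -0.51 on day 60. At the other end, Bub1 was still 0.99 and Mki67 0.74 higher at the lesion site on day 90, while Cdk1 (0.30) and Top2a (0.31) had no call.

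**Figure D3:**
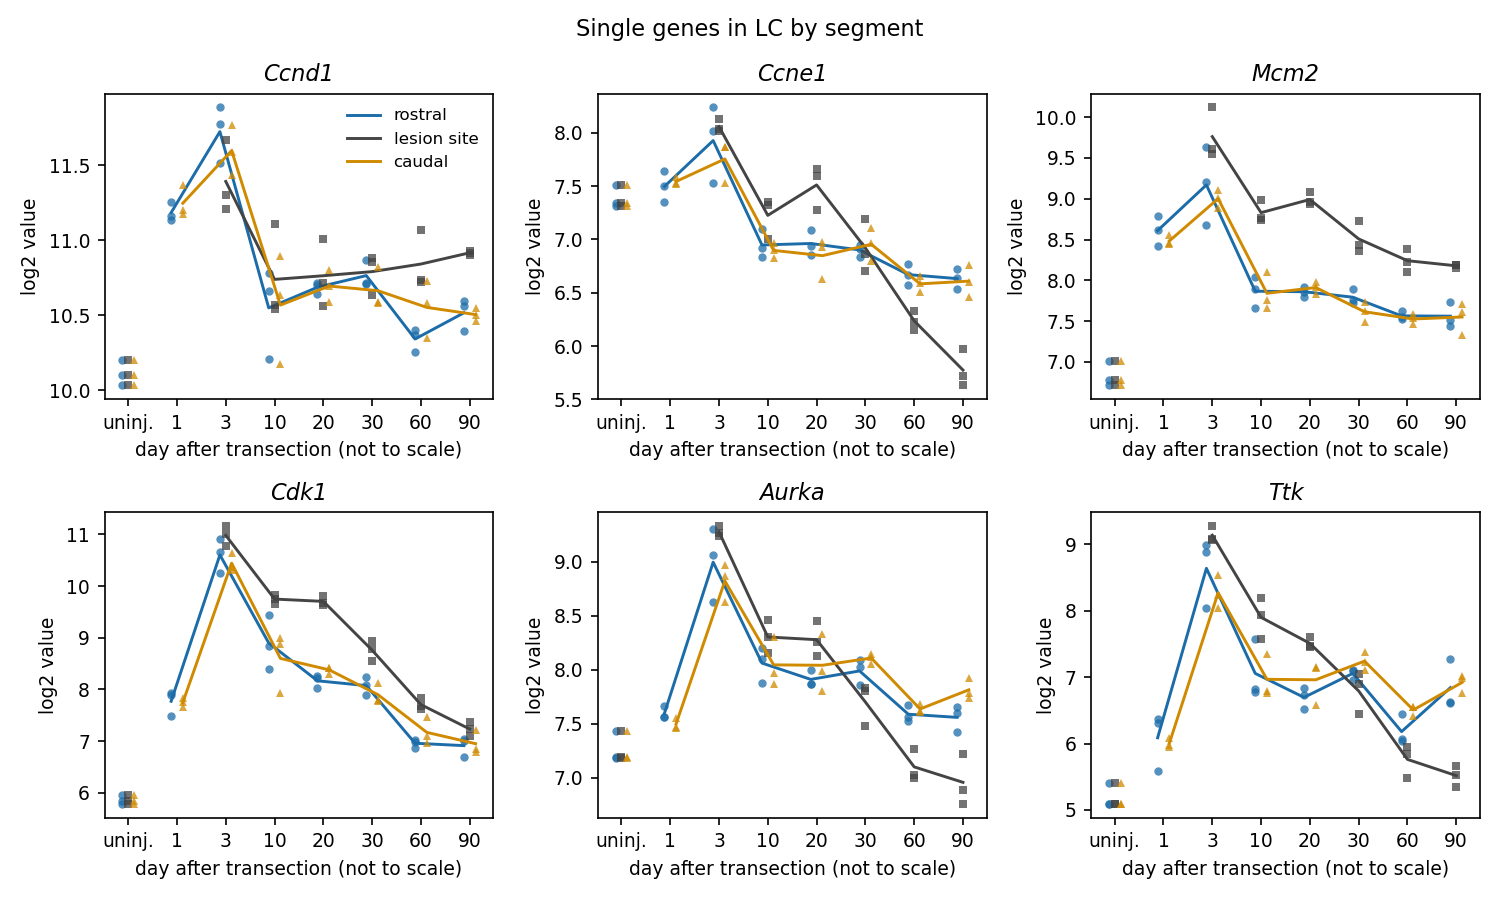
Log2 values of 6 genes in LC by segment and day, with the same 3 uninjured cords drawn at the left for each segment. Points are single arrays and lines join group means, with days evenly spaced, not to scale. Ccne1 falls furthest at the lesion site, and Ttk and Aurka end lower there than rostrally and caudally, whereas Mcm2 and Cdk1 stay higher at the lesion site for most of the course.

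Between rostral and caudal cord no gene was called in LC as a mean over days (0.507% of all genes called), on day 1 (3.45%) or on day 3 (0%). Over the 9 genes always described, the mean differences ran from -0.03 for Mki67 to 0.07 for Mcm2. On day 1, 1 gene was called without rostral LC day 1 replicate 1, and on day 3, 1 without rostral LC day 3 replicate 2.

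An NT3-loaded tube went with lower cell cycle RNA at the lesion site after day 3. The empty tube was sampled there on day 3 alone, so on later days NT3 and the tube cannot be told apart. As a mean over days, 31 of the 38 genes were lower with NT3 than in LC (22.9% of all genes lower, 41.9% called), 7 of 9 S phase genes, 23 of 27 mitosis genes and Ccne1. Day 20 held the widest difference, with 33 genes lower (19.4% of all genes lower, 33.5% called) and none higher: 6 of 9 S phase genes (median -0.64), 26 of 27 mitosis genes (median -0.74) and Ccne1. For all 33 the 3 NT3 arrays lay below the 3 LC arrays, as they did for 25.1% of all genes. The count on day 20 was 31 or 32 without single arrays and 31 to 35 under the other settings. The call of Cdc20 was the one lost without lesion site LC day 20 replicate 5 (-0.35).

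On day 20 the LC lesion site was still near its day 10 level, and NT3 was lower. Mki67 read 10.02, 9.73 and 9.55 in LC and 8.68, 9.03 and 8.69 with NT3, a difference of -0.97 (SE 0.22, adjusted p = 0.001). Cdk1 read 9.68, 9.63 and 9.80 in LC and 8.97, 9.17 and 8.99 with NT3, a difference of -0.66. The NT3 arrays of both genes stayed more than 2 above the uninjured ones. Ccna2, the cyclin of S phase and early mitosis, read 8.92, 8.31 and 8.01 in LC and 7.18, 7.23 and 7.24 with NT3, the largest difference at -1.20 (SE 0.18, adjusted p = 5.6e-06). Ccnb1 read 8.83, 8.53 and 8.86 in LC and 7.77, 8.06 and 7.94 with NT3 (-0.82). Mcm6 read 8.56, 8.48 and 8.45 in LC and 7.51, 7.48 and 7.53 with NT3 (-0.99). Groups did not overlap for any of these 5 genes. Tacc3 (-0.98) and the kinesin Kif2c (-0.95) were next in size. Mcm5 differed by -0.81, Ccne1 by -0.69, Top2a by -0.68 and Mcm2 by -0.64. The genes without a call were Ccnd1 (0.16), Pcna (-0.07), Mcm7 (-0.14), Tyms (-0.25) and Ube2c (-0.32).

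**Figure D4:**
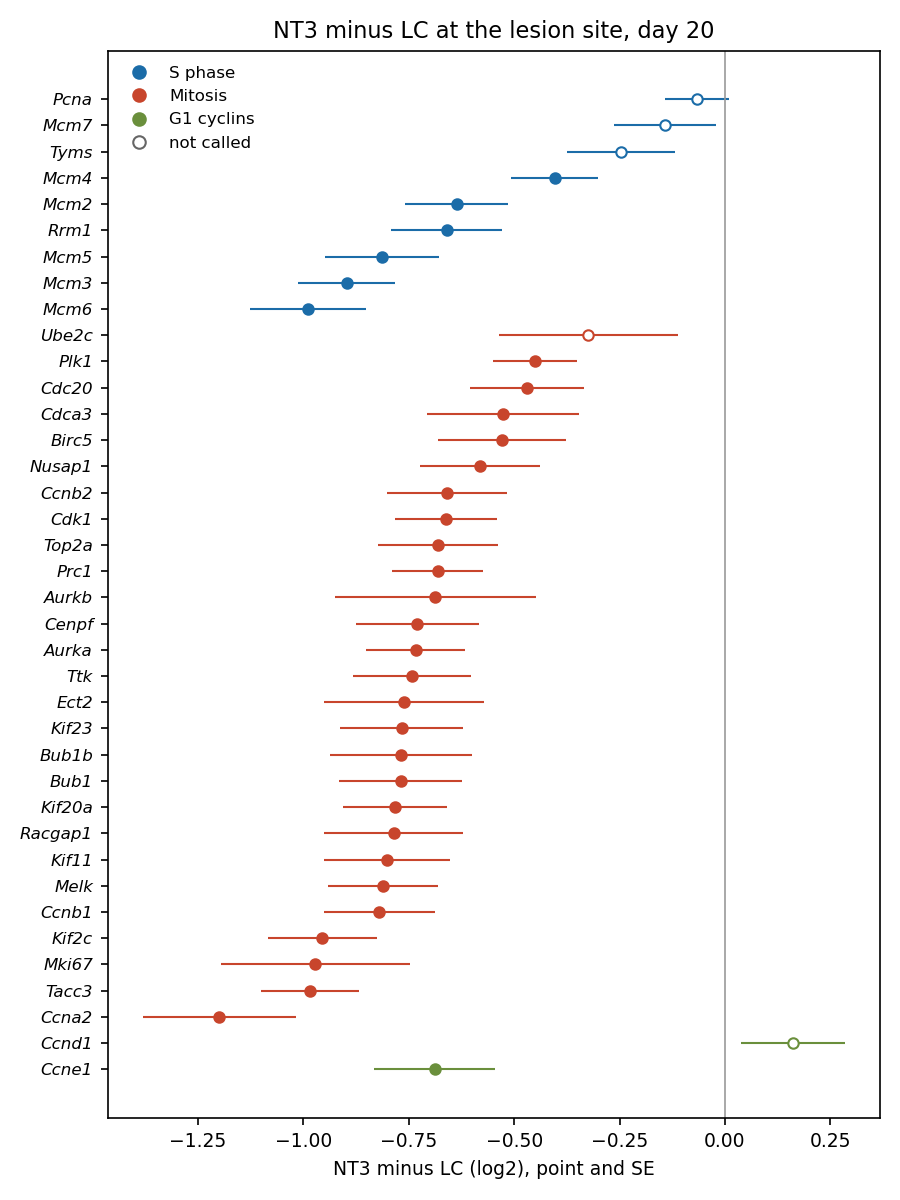
NT3 minus LC at the lesion site on day 20 for each of the 38 genes, as log2 difference with its SE. Filled points passed the test and open points did not. Of the 5 open points, Ccnd1 alone lies above 0, and Ccna2 lies lowest at -1.20.

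Cell type markers differed between the same arrays. On day 20 at the lesion site, 11 of the 11 T cell markers tested were lower with NT3, their mean level being 8.11 to 8.64 in LC, 6.67 to 6.70 with NT3 and 5.49 to 5.56 in uninjured cord. Of 14 microglia and macrophage markers 9 were lower (11.20 to 11.32 in LC, 10.40 to 10.59 with NT3). In the other direction, 8 of the 10 neuron markers tested (6.61 to 6.97 in LC, 8.75 to 9.09 with NT3), 7 of 9 skeletal muscle markers (5.8 to 7.0 and 8.77 to 10.22) and 6 of 6 erythroid markers were higher. Fibroblast and pericyte markers had 1 gene higher and 1 lower of 9. The histocompatibility gene RT1-CE10 was above 9 in 2 of 3 LC arrays and in no NT3 array on that day. The part of these differences in the result was not tested.

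On the other days the lesion site differences were fewer. On day 10, 13 genes were lower (2.80% of all genes lower, 5.22% called), the largest being Ccna2 (-0.83), Mki67 (-0.76) and the kinase Ttk (-0.67). The Mki67 call was lost without LC replicate 2 or 3 or NT3 replicate 1 or 3 and in 1 fit of all arrays, and the Ttk call without LC replicate 3 (-0.52). On day 30, 8 were lower (8.24% of all lower, 18.1% called), on day 60, 13 (15.3% lower, 25.7% called), and on day 90, 10 were lower and 1 higher (16.5% lower, 12.3% higher). The day 10 count was 3 without LC replicate 3 or NT3 replicate 1, 4 without LC replicate 2, 8 without NT3 replicate 3 and 21 without LC replicate 1. The day 30 count was 2 without NT3 replicate 2, 3 without LC replicate 1, 4 without LC replicate 2 and 5 without NT3 replicate 3. The day 60 count was 7 without NT3 replicate 1 or 3. The day 90 count was 3 without NT3 replicate 1, 4 without LC replicate 1, 6 without NT3 replicate 2 and 7 without LC replicate 2. Over days 10, 20, 30, 60 and 90, Mki67 differed by -0.76, -0.97, -0.45, -0.57 and -0.57, with calls on days 10 and 20, and on day 60 it was called without NT3 replicate 2 (-0.99). Cdk1 differed by -0.45, -0.66, -0.15, -0.71 and -0.15, with calls on days 10, 20 and 60. Its day 10 call was lost without LC replicate 1 or 3 or NT3 replicate 1. Pcna ran from -0.15 to 0.13 with no call on any day. On day 60 Ccnd1 was lower by -0.54, with 10.72, 10.74 and 11.06 in LC and 10.40, 10.23 and 10.26 with NT3.

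**Figure D5:**
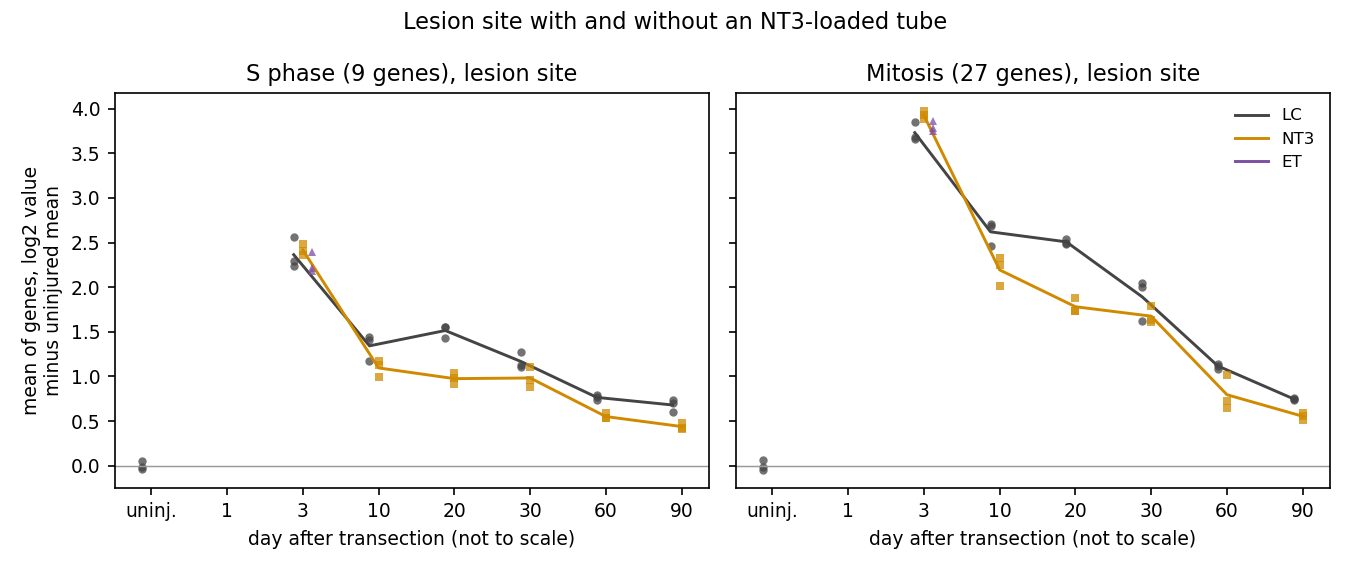
Mean of the S phase genes (left) and of the mitosis genes (right) at the lesion site, as log2 value minus the uninjured mean, for LC, NT3 and, on day 3, ET. Points are arrays and lines join group means, with days evenly spaced, not to scale. The 3 arms lie close together on day 3, and the gap between LC and NT3 is widest on day 20.

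On day 3 itself no gene was lower with NT3 at the lesion site and 3 were higher (7.97% of all genes higher, 17.8% called): Birc5 (0.62), a chromosomal passenger and survival gene, Kif2c (0.40) and Plk1 (0.39). The share of members called higher was near that of all genes. Birc5 read 8.63, 8.76 and 8.84 in LC and 9.33, 9.38 and 9.38 with NT3, with no overlap. The Plk1 call was lost without NT3 day 3 replicate 2 (0.27). That of Kif2c was lost without LC replicate 1 (0.31) or 2 (0.42), or NT3 replicate 2 (0.36) or 3 (0.38). The class means were 2.36 ± 0.18 for S phase and 3.73 ± 0.10 for mitosis in LC, 2.42 ± 0.06 and 3.93 ± 0.04 with NT3, and 2.26 ± 0.11 and 3.8 ± 0.06 with ET. By day 20 they were 1.51 and 2.51 in LC and 0.98 and 1.78 with NT3, and by day 90, 0.68 and 0.75 in LC and 0.44 and 0.55 with NT3. On day 90 Aurkb, a chromosomal passenger kinase, was higher with NT3 by 0.92, with arrays of 6.31, 6.56 and 7.2 in LC and 6.78, 8.28 and 7.78 with NT3 that overlapped. Without NT3 day 90 replicate 2 that difference was 0.59 (adjusted p = 0.0625). At the lesion site RT1-CE10 was above 9 in 3 of 3 LC arrays and 0 of 3 NT3 arrays on day 90. On day 3 it was above 9 in 2 of 3 LC arrays and 0 of 3 NT3 arrays. Its part in the differences of these days was not tested.

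The test of a change with day found that NT3 minus LC was not constant at the lesion site for 28 of the 38 genes, where 50.6% of all genes were called. The 10 genes without a call were Mcm4, Mcm7, Pcna, Rrm1, Tyms, Ccnb2, Top2a, Mki67, Nusap1 and Ect2. Rostrally 6 genes were called (28.2% of all genes), Ccnd1, Mcm2, Mcm3, Mcm4, Rrm1 and Tyms, and caudally 1, Ccne1 (7.18%). The rostral count was 3 without LC day 20 replicate 2 or LC day 3 replicate 1 or 3, and 16 without LC day 3 replicate 2. The caudal count was 0 without LC day 90 replicate 2, NT3 day 1 replicate 2, NT3 day 20 replicate 2 or NT3 day 90 replicate 2, 2 without LC day 30 replicate 2 or NT3 day 1 replicate 3, and 3 without LC day 10 replicate 2.

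Beside the lesion fewer genes were called between NT3 and LC. As a mean over days rostrally, Mcm2 (-0.21) and Mcm3 (-0.22) were lower (2.77% of all genes called). Both calls were lost when only days with like RT1-CE10 levels were averaged, at -0.00 and -0.09. The count was 4 without LC day 1 replicate 1, LC day 10 replicate 1 or NT3 day 3 replicate 2, and 12 without LC day 3 replicate 2. On day 3 rostrally 8 genes were lower (7.09% of all genes called), 7 S phase genes and Cenpf. Mcm3, a helicase subunit, read 9.08, 8.22 and 8.91 in LC and 8.18, 8.27 and 7.90 with NT3 (-0.62), groups that overlapped through LC replicate 2. That count was 0 without LC replicate 1, 1 without LC replicate 3 or NT3 replicate 3, 4 without NT3 replicate 1 and 27 without LC replicate 2. Caudally no gene was called on day 3 (3.22%). As a mean over days 3 were lower caudally, Birc5 (-0.20), Mcm3 (-0.17) and Mcm2 (-0.15), where 9.76% of all genes were called. The caudal count was 0 on days with like RT1-CE10 levels. It was 1 without LC day 1 replicate 3, LC day 3 replicate 3, LC day 10 replicate 3, LC day 20 replicate 2, LC day 60 replicate 1, LC day 90 replicate 2 or 3, NT3 day 1 replicate 2, NT3 day 10 replicate 1, NT3 day 30 replicate 3 or NT3 day 60 replicate 3. It was 5 without LC day 3 replicate 1 or LC day 20 replicate 1, 8 without LC day 10 replicate 2 and 11 without NT3 day 1 replicate 3. No gene passed the test of a difference between the rostral and the caudal NT3 effect (0.108% of all genes called).

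The empty tube gave few calls, and at the lesion site it was compared on day 3 alone. ET against LC as a mean over days left Ccne1 lower rostrally (-0.16, 22.8% of all genes called) and no gene called caudally (3.50%). At the lesion site on day 3, Ccna2 (0.49) and Plk1 (0.28) were higher and Tyms lower (-0.52), where 23.2% of all genes were called. NT3 against ET, which shares its NT3 arrays with the comparison above, left 13 genes lower rostrally (12.8% of all genes lower, 30.2% called), from -0.14 for Mcm2 to -0.29 for Ccna2. In that comparison 10 of 10 neuron markers were higher (median 0.30), and 8 of 9 fibroblast and pericyte markers (median -0.57) and 5 of 9 skeletal muscle markers were lower. For ET against LC rostrally, 8 of 9 fibroblast and pericyte markers were higher and 9 of 10 neuron markers lower. The part of these markers was not tested. Caudally Ect2 (-0.29), Bub1 (-0.28) and Ttk (-0.28) were lower (8.38%). On day 3 Kif2c was higher in the lesion segment (0.49, 7.23%). Most of these counts turned on single arrays. The rostral ET count was 8 without LC day 10 replicate 2, 5 without ET day 90 replicate 3, 3 without ET day 30 replicate 1 or LC day 3 replicate 3, and 2 without ET day 3 replicate 1, ET day 60 replicate 3, LC day 20 replicate 1 or LC day 3 replicate 1 or 2. The caudal ET count was 2 without ET day 20 replicate 2 or LC day 10 replicate 2, and 1 without ET day 1 replicate 2, ET day 10 replicate 3, ET day 30 replicate 2, ET day 60 replicate 3, LC day 20 replicate 3 or LC day 60 replicate 3. The lesion site ET count was 1 without ET replicate 3 or LC replicate 2 or 3. For NT3 against ET, the caudal count was 1 without ET day 1 replicate 3 or NT3 day 1 replicate 1, 5 without ET day 3 replicate 1 and 9 without NT3 day 1 replicate 3. The lesion site count was 0 without ET replicate 1 or 2 or NT3 replicate 2 or 3, and 2 without NT3 replicate 1.

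Other genes of the cycle were taken from lists named by function, and most of them rose on day 3 as well. Of 31 further replication genes, 24 rose and 2 fell rostrally on day 1 and 28 rose on day 3 (median 0.96), led by Pole2 (2.62), a DNA polymerase subunit, and Tk1 (2.61), thymidine kinase. At the lesion site 29 rose on day 3. Of 40 further mitosis genes, 21 rose and 4 fell on day 1 and 36 rose and 2 fell on day 3 (median 2.06), led by Cks2 (4.63), a Cdk1 cofactor, and Shcbp1 (4.53). Cit (-1.36), a cytokinesis kinase, and the kinetochore gene Zwint (-0.65) fell. On day 20 at the lesion site, 18 of the replication genes and 29 of the mitosis genes were lower with NT3 and 1 of each was higher, Tk1 (0.47) in the replication list and Zwint (1.46) in the mitosis list.

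The regulators above these genes moved in different ways. Myc, which promotes growth and cycle entry, rose by 3.35 rostrally on day 1 (SE 0.15) and 2.81 on day 3, and was lower with NT3 at the lesion site on day 20 (-0.60). The transcription factor genes E2f1 (0.02), Foxm1 (0.04) and Mybl2 (0.02) had no call on day 1 and rose on day 3 by 0.61, 0.77 and 0.27. With NT3 on day 20, E2f1 (-0.41) and Foxm1 (-0.48) were lower, and Mybl2 differed by -0.22 without a call. Of the other D cyclins, Ccnd2 rose by 0.81 on day 1, 1.60 on day 3 and 2.02 on day 90 rostrally, so unlike Ccnd1 it was highest of these days on the last, and Ccnd3 rose by 0.67, 0.69 and 0.29. On day 20 at the lesion site Ccnd2 was higher with NT3 (0.79).

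Of the 8 inhibitors of cyclin-dependent kinases, 3 rose and 1 fell rostrally on day 1, 5 rose and 1 fell on day 3, and 6 rose and 1 fell at the lesion site on day 90. Of all genes, 31.5% rose and 62.6% were called on day 1, 35.3% and 64.3% on day 3, and 39.3% and 72.2% at the lesion site on day 90. Cdkn3, a phosphatase that acts on Cdk1 and is itself made in dividing cells, rose by 3.81 rostrally and 4.29 at the lesion site on day 3 and was lower with NT3 on day 20 (-0.60). Cdkn1a (p21) rose by 1.21 on day 1 and 0.81 on day 3 rostrally. Cdkn1c (p57) fell on day 1 (-0.95) and on day 3 rostrally (-0.82). In the lesion segment it fell on day 3 (-1.49) and rose by 0.88 on day 90. Cdkn2a and Cdkn2c, of the INK4 family that blocks D cyclin kinases, rose by 2.08 and 1.96 at the lesion site on day 90, when most cell cycle genes had come down. Cdkn2c had risen there by 1.81 on day 3. Cdkn2d rose by 0.67 on day 1 rostrally and fell at the lesion site on day 90 (-0.66). Cdkn1b (p27) and Cdkn2b (p15) had no call rostrally on days 1, 3 and 90, and on day 90 they rose by 0.41 and 0.31 in the lesion segment.

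Of the 38 genes, 11 had more than 1 probe set. For 10 of them all probe sets had the same sign on day 3 rostrally, and for Cdc20, an activator of the anaphase-promoting complex, they ran from -0.03 to 2.22. Sizes differed too: Kif23 ran from 0.34 to 3.57 and Tacc3 from 0.22 to 2.58, so the reported rise of these genes is that of the brightest probe set.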

How the data were processed

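The authors' deposited table holds log2 values of 31099 probe sets on 167 arrays. Per the submitters' processing notes, the tools were GCOS, RMA and Affymetrix Expression Console, and which arrays were normalised together is not given in the sources used here. RMA summarises probes on a relative scale, so levels of different genes cannot be compared. Of the probe sets, 57 were controls, 20832 had 1 symbol in the array annotation and 436 had several.

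Each gene was represented by its probe set of highest mean. Testing required a value over the array's 40th percentile in 3 or more arrays. A limma 3.58.1 model of group means (R 4.3.3) was used, 1 fit for each segment with the uninjured cords, and all segments together for comparisons between them. The 58 contrasts and 3 F-tests used two-sided moderated p-values, adjusted by Benjamini-Hochberg over all genes tested. The procedure was also run on simulated data for 3 of the contrasts, with noise drawn independently for each array. Such data cannot show how it behaves with correlated arrays. Percentages of all genes called stand beside the counts of members.

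Members, lists, comparisons and alternatives were chosen with earlier results of these data known. Ccnd1, Ccne1, Cdk1, Ccnb1, Top2a, Mki67, Mcm2, Mcm5 and Pcna were described throughout, with the largest and smallest called members and those called against the rest. Alternatives were other normalizations, filters, priors, array weights, the mean of probe sets, 1 fit of all arrays, a beta-actin covariate, the replicate number as a block, days alike in RT1-CE10, 3 arrays removed, and each array left out in turn. Replicate numbers were not taken to pair samples, since not every same-numbered pair of arrays of 2 segments had deviations correlated over 0.1. Such pairs were 32 of 62 between rostral and caudal cord, 18 of 38 between rostral cord and lesion site and 14 of 38 between lesion site and caudal cord, and in some groups all 3 pairs were. Same-numbered NT3 and LC arrays of 1 segment, which differ in treatment, gave 8 of 21 rostrally, 7 of 17 at the lesion site and 5 of 21 caudally. This rule cannot show that segments are unpaired, and the main comparisons between segments treat their arrays as independent. Promoter sequences are from RefSeq (GRCr8), matched by symbol.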

Additional observations from a re-analysis of the deposited data

Results flagged for a closer look

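The F-test of limma asked whether NT3 minus LC differed between days. It called 6 of the 38 genes rostrally (28.2% of all genes), 28 at the lesion site (50.6%) and 1 caudally (7.18%), so the rostral and caudal shares of the members were under those of all genes. With single arrays left out the counts ran from 3 to 16 rostrally and 0 to 3 caudally.

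At the lesion site 4 genes were called higher with NT3 on 1 day and lower on another, as well as by the F-test. This was 10.5% of the members and 10.2% of all tested genes, so the members did so about as often as all genes. Kif2c was higher on day 3 (0.40) and lower on days 10 (-0.44), 20 (-0.95) and 30 (-0.48), with an F-test adjusted p of 5.46e-06. Each single-day call of Kif2c except that of day 20 was lost when certain single arrays were left out. Plk1 was higher on day 3 (0.39) and lower on days 20 (-0.45) and 30 (-0.30), with an adjusted p of 0.000343. Its day 30 call was lost without LC replicate 1, 2 or 3 or NT3 replicate 3. Birc5 was higher on day 3 (0.62) and lower on day 20 (-0.53), with an adjusted p of 0.00103. Aurkb was lower on day 20 (-0.69) and higher on day 90 (0.92), with an adjusted p of 0.00274. Without NT3 day 90 replicate 2 the Aurkb difference on day 90 was 0.59 and was not called.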

How the results depend on the processing

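Most results kept their side of the threshold. Of 8176 values of single genes under the alternatives, 7950 kept their call, 111 lost it, 114 gained one and 1 reversed. With single arrays left out, 7902 of 8444 kept it, 481 lost it and 61 gained one. The reversed value was Ccnb1 at the lesion site on day 90, 0.44 with the mean of probe sets. S phase minus mitosis was less stable in size. With the mean of probe sets it moved by the group's SD or more in 37 groups and stayed within it in 18. Without the highest and lowest gene of each class it moved in 34 groups, stayed in 20 and reversed in 1. The reversed group was LC at the lesion site on day 90, at -0.07 and then 0.088. After quantile normalization it moved in 3 groups, and after scaling to the 75th percentile in 0. Replicate numbers were not taken to pair samples. The replicate block changed counts by at most 2, for example 31 instead of 33 for NT3 minus LC on day 20 at the lesion site, and 28 instead of 27 for LC on day 1 caudally. Causes of the changes below were not tested. Precision is limited by 3 arrays a group.

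With array weights, whose estimation did not converge fully, counts rose: ET minus LC to 3 caudally, 5 at the lesion site and 8 rostrally; LC from day 30 to 90 to 16 caudally and 30 rostrally; rostral minus caudal on day 1 to 2; NT3 minus ET to 6 caudally, 9 at the lesion site and 23 rostrally; the test by day to 10 caudally and 31 rostrally; NT3 minus LC to 1 on day 3 caudally, 10 and 11 as means caudally and rostrally, and at the lesion site 6, 29, 20, 29 and 20 on days 3, 10, 30, 60 and 90. In 1 fit of all arrays, ET minus LC gave 1 caudally and 3 rostrally, NT3 minus ET at the lesion site 2, the caudal test by day 2, and NT3 minus LC at the lesion site 5 on day 10 and 6 on day 90. Scaling to the 75th percentile gave 1 caudally and 2 rostrally for ET minus LC, 10 for LC from day 30 to 90 caudally, 0 for NT3 minus ET at the lesion site and 5 for the caudal NT3 mean. The beta-actin covariate and the 60th percentile filter gave 1 for ET minus LC caudally, and the covariate 3 for NT3 minus LC on day 3 rostrally. NT3 minus ET at the lesion site was 2 without 3 arrays that stood apart, 3 when probe sets were averaged and 0 after quantile normalization. On days alike in RT1-CE10, the rostral and caudal NT3 means gave 0.

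Leaving out single arrays gave 0 to 2 caudally, 1 to 8 rostrally and 1 to 2 at the lesion site for ET minus LC; 4 to 23 caudally and 2 to 22 rostrally from day 10 to 30; 0 to 5 and 1 to 9 from day 30 to 90; 0 to 1 for rostral minus caudal on days 1 and 3; 1 to 9 caudally and 0 to 2 at the lesion site for NT3 minus ET; 0 to 3 caudally and 3 to 16 rostrally by day; and for NT3 minus LC 1 to 11 caudally and 2 to 12 rostrally as means, 0 to 27 on day 3 rostrally, and 1 to 4, 3 to 21, 2 to 10, 7 to 16 and 3 to 11 at the lesion site on days 3, 10, 30, 60 and 90.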
